A study of Arabidopsis thaliana with 4 samples.

Results

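Of 33557 loci with a deposited expression value in Arabidopsis thaliana seedlings, 110 made up a group of genes at least 2-fold higher in mos2-2 than in the wild type Col-0. A member averaged 1 FPKM or more over the 4 libraries, a mean log2(FPKM + 5) at least 1 higher in mos2-2, and both mos2-2 values above both Col-0 values. FPKM relates the sequenced fragments of a gene to its transcript length and to the depth of the library. The 5 added before taking the logarithm keeps very low genes out and understates their change. Of the 19236 genes that averaged 1 FPKM or more, and so were tested, the 110 were 0.572%, while 1.46% had such a difference when overlap was allowed. The same values chose the members, so they are given as a description, with no test. The plants of both genotypes were 14-day-old seedlings in the Col-0 background, kept under 16 h light and 8 h dark. The mos2-2 plants carry the T-DNA insertion SALK_033856 in MOS2, the gene of an RNA-binding protein that the study links to microRNA maturation, and 1 insertion line stands for the mutant. There were 2 poly(A) RNA libraries of mos2-2 and 2 of Col-0. The labels do not say that they came from separate cultures, so the spread between them may be technical. In whole seedlings, more RNA per cell and more cells of a type cannot be told apart.

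Plant mitochondria with a disturbed electron transport chain signal to the nucleus, a process called mitochondrial retrograde regulation. Transcription factors of the NAC family that are held in the endoplasmic reticulum, among them ANAC013 and ANAC017, are released and bind a promoter element known as the mitochondrial dysfunction motif. Known targets include alternative oxidase, which carries electrons past the cytochrome pathway, and small mitochondrial stress proteins. Small nucleolar RNAs (snoRNAs) guide chemical modification of ribosomal RNA. Those of the box C/D type carry a C box near the 5′ end and a D box near the 3′ end, and plants often make several of them from 1 precursor.

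The mitochondrial dysfunction motif was searched on both strands, as CTTG followed by 5 free bases and then CAAG or CACG, in the 250 bases before and the 50 bases after the annotated start of each tested nuclear coding gene of at least 300 nt. It was present in 11 of the 62 such members (17.7%), against 176 of all 18057 windows (0.975%). It was in 0 of the 234 windows of genes that met the mirrored rule, lower in mos2-2, which at 0.975% of all windows is near the background. The windows of 7 members are shown because the motif is the sequence feature that set the members furthest from all windows. They were read from the TAIR10.1 genome and are written 5′ to 3′ on the gene's strand, with the motif in capitals and the annotated start at base 251.
AT2G21640 (UPOX), chr2:9254128-9254427, plus strand: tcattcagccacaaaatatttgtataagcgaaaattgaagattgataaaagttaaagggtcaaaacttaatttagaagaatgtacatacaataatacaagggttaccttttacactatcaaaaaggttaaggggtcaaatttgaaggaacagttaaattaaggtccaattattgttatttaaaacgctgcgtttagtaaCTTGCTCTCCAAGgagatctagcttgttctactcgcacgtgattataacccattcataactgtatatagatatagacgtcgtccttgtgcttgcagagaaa
AT2G04050 (DTX3), chr2:1339419-1339718, minus strand: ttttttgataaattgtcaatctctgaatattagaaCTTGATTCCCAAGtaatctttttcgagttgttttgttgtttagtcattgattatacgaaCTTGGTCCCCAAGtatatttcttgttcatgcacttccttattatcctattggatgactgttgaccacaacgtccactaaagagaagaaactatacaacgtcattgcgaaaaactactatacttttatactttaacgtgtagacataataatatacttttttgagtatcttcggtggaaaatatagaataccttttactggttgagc
AT3G22370 (AOX1A), chr3:7906271-7906570, plus strand: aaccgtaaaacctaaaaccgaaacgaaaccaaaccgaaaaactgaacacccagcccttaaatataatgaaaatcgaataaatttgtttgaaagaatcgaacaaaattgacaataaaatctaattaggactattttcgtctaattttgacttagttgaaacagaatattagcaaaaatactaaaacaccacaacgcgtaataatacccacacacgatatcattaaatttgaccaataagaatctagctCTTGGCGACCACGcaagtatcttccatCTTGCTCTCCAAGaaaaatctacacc
AT5G51440 (HSP23.5), chr5:20890913-20891212, plus strand: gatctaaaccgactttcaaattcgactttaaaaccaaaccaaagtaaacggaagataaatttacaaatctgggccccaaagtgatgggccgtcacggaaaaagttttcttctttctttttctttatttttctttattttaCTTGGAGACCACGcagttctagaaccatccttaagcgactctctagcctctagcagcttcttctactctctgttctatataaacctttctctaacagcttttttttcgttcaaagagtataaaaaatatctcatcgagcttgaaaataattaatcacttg
AT2G41730, chr2:17409120-17409419, plus strand: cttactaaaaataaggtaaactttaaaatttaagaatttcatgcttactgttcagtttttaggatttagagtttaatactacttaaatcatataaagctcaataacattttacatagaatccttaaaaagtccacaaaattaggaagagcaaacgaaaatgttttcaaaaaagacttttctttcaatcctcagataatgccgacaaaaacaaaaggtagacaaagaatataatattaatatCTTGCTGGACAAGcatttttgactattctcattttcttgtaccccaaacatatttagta
AT5G24640, chr5:8436102-8436401, plus strand: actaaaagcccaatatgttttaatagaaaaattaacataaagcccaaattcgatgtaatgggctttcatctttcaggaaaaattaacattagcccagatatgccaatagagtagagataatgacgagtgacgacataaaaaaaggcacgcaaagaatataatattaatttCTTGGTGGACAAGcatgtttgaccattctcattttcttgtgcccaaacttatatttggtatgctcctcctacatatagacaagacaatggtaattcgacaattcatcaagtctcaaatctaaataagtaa
AT3G01600 (NAC044), chr3:228825-229124, plus strand: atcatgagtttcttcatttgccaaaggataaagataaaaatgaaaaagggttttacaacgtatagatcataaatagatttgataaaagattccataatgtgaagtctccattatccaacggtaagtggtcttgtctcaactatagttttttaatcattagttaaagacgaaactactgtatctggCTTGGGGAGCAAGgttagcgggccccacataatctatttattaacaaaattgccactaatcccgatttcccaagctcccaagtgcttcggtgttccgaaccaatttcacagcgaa

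DTX3 and AOX1A held the motif in 2 copies each. The copy of UPOX and the second copy of AOX1A were the same 13 bases, CTTGCTCTCCAAG, at base -51 and base 25 from the annotated starts. The windows of AT2G41730 and AT5G24640 were alike around the motif, with 70 of 80 bases identical (87.5%) in an ungapped comparison. Of the other carriers, AT4G12735 held 2 copies, CTTGAACTTCACG and CTTGGCCGCCAAG, AT2G18193 held CTTGCACCGCACG and AT2G35480 held CTTGACGAACAAG. AT5G09570 held CGTGACGGGCAAG, the motif read on the other strand, at base 14 and so inside the transcript. A match describes these letters and does not show that a factor binds there.

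The 110 members were of several kinds. Coding genes of the nucleus made up 70, of which 62 had transcripts of at least 300 nt and 8 were shorter. The 62 were 0.343% of the 18058 such genes tested. SnoRNA genes gave 15 members of 65 tested (23.1%), the chloroplast genome 11 of 130, tRNA genes 5 of 158, rRNA genes 2 of 4, and snRNA genes 1 of 12. There were also 2 lncRNAs, 2 transcribed pseudogenes, 1 microRNA precursor (MIR157c) and 1 locus of the mitochondrial genome. The mirrored rule took 278 genes lower in mos2-2, 245 of them nuclear coding genes and 3 of them snoRNA genes. In the plot of all tested genes, the short RNA members hold most of the differences above 4 on the log2 scale.

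**Figure D1:**
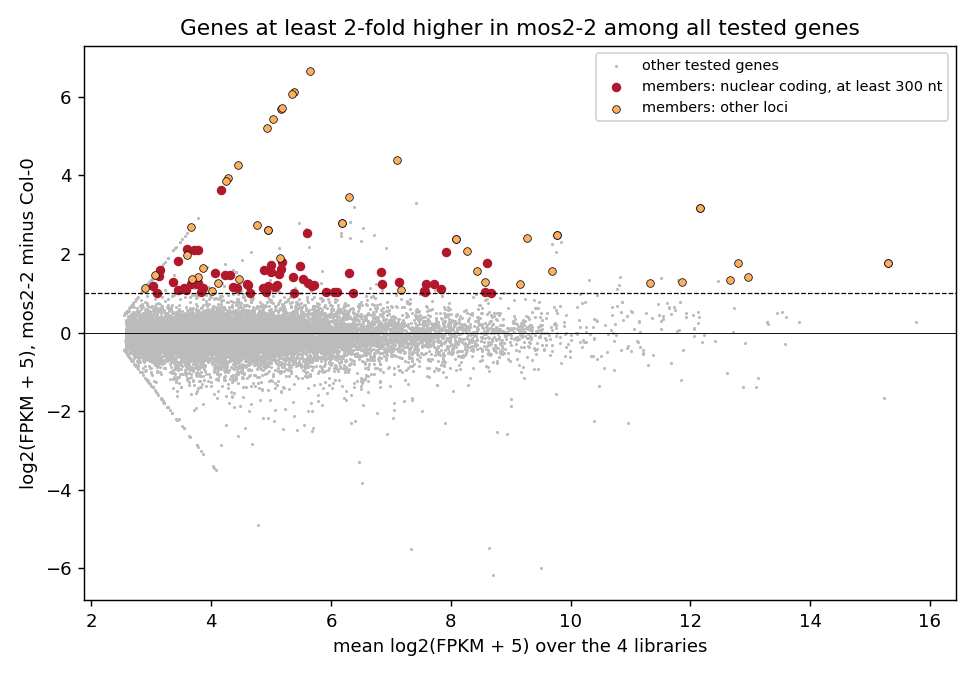
Mean log2(FPKM + 5) over the 4 libraries (x axis) against the difference of mos2-2 minus Col-0 (y axis) for the 19236 tested genes. Red points are the 62 nuclear coding members of at least 300 nt, orange points the other members, and the dashed line marks the threshold of 1. Grey points above the line are genes whose genotypes overlapped.

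The libraries summed to 1388613 and 1522916 FPKM in mos2-2 and 1350292 and 1393563 FPKM in Col-0. From the steps between low values, the reads behind them were estimated at 7600000 and 7800000 in mos2-2 and 4500000 and 7500000 in Col-0, which makes Col-0 replicate 1 the shallowest. MOS2 itself was at 2.16 and 1.16 FPKM in mos2-2, against 50.3 and 36.9 FPKM in Col-0. The leaf markers RBCS1A and CAB3 summed to 16100 and 22700 FPKM in mos2-2 and 12270 and 17000 FPKM in Col-0, and 4 seed storage genes summed to at most 1.02 FPKM in any library. Flower markers summed to 6.74 and 37.7 FPKM in mos2-2 and 52.76 and 20.15 FPKM in Col-0. Meristem markers summed to 4.94 and 18.6 FPKM in mos2-2 and 19.3 and 16.2 FPKM in Col-0. For root markers the sums were 29.8 and 21.9 against 33.5 and 44.2 FPKM, and for guard cell markers 22.3 and 16.9 against 13.9 and 15.6 FPKM. The part of tissue content in the members was not tested. The limma test over all 19236 genes called 4 genes at an adjusted p below 0.05 (0.0208%), all higher and all members. These were the snoRNAs AT1G03746, AT2G43138 and AT1G75163 and the tRNA-Gly gene AT1G60840. Of all tested genes, 2520 (13.1%) had both mos2-2 values above both Col-0 values and 4757 (24.7%) had both below.

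Among the coding members, 5 belonged to a list of 15 genes known to respond to mitochondrial dysfunction, and all 5 carried the motif. Known targets of the factors that bind the motif include such genes, so the match in these 5 is no independent evidence. How many of the 10 listed genes that were no members carry it is not given here. UPOX (AT2G21640), a small mitochondrial protein used as a marker of oxidative stress, was at 102.6 and 123.0 FPKM in mos2-2, against 14.7 and 15.8 FPKM in Col-0. Its mean was 7.41-fold higher, and both genotypes had close replicates. HSP23.5 (AT5G51440), a small heat shock protein of mitochondria, was at 16.2 and 29.5 FPKM in mos2-2, against 1.73 and 0.907 FPKM in Col-0. The lowest mos2-2 value was 9.40 times the highest Col-0 value.

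AOX1A, the main stress-inducible alternative oxidase gene, was at 50.04 and 59.0 FPKM in mos2-2, against 17.59 and 33.2 FPKM in Col-0. The Col-0 libraries differed from each other more than the mos2-2 libraries did, and the genotypes did not overlap. AT12CYS-2 (AT5G09570), a protein with paired cysteines of the Cox19-like family, was low in all libraries, at 5.70 and 8.78 FPKM in mos2-2 and 1.24 and 0.814 FPKM in Col-0. AT2G41730, annotated as a calcium-binding site protein, was at 154.5 and 108.4 FPKM in mos2-2, against 60.5 and 28.2 FPKM in Col-0. In both genotypes its replicate 1 was the higher library.

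The other 6 members with the motif were not on that list. DTX3 (AT2G04050), a transporter of the MATE family that moves organic compounds out of the cell, was at 16.45 and 14.25 FPKM in mos2-2, against 0.840 and 0.735 FPKM in Col-0. In its MATE cluster on chromosome 2, 6 genes were tested, 3 higher and 3 lower, and DTX3 was the only member. Without overlap, DTX3 and DTX4 were higher and AT2G04066 and AT2G04080 lower, where all tested genes had 13.1% higher and 24.7% lower. AT2G04080 was at 7.87 and 10.3 FPKM in mos2-2 and 15.2 and 16.9 FPKM in Col-0. AT2G18193, annotated as a nucleoside triphosphate hydrolase with a P-loop, was at 20.75 and 19.6 FPKM in mos2-2, against 1.09 and 0.4345 FPKM in Col-0. DTX3 and AT2G18193 were near absent in Col-0 and their mos2-2 replicates lay within 0.16 of each other on the log2(FPKM + 5) scale. NAC044, a NAC factor that acts in the arrest of the cell cycle after DNA damage, was at 9.24 and 11.6 FPKM in mos2-2, against 0.1845 FPKM in Col-0 replicate 1 and a listed 0 in Col-0 replicate 2.

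AT5G24640, an uncharacterized protein whose promoter window is like that of AT2G41730, was at 14.4 and 8.25 FPKM in mos2-2, against 2.24 and 1.01 FPKM in Col-0. As in AT2G41730, replicate 1 was the higher library of each genotype. AT4G12735, also uncharacterized, was at 16.5 and 16.0 FPKM in mos2-2, against 1.93 and 6.48 FPKM in Col-0. AT2G35480, annotated as an envelope glycoprotein, was at 16.3 and 15.6 FPKM in mos2-2, against 3.64 and 4.09 FPKM in Col-0. The plot of the motif carriers shows all 11 with the 4 libraries side by side.

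**Figure D2:**
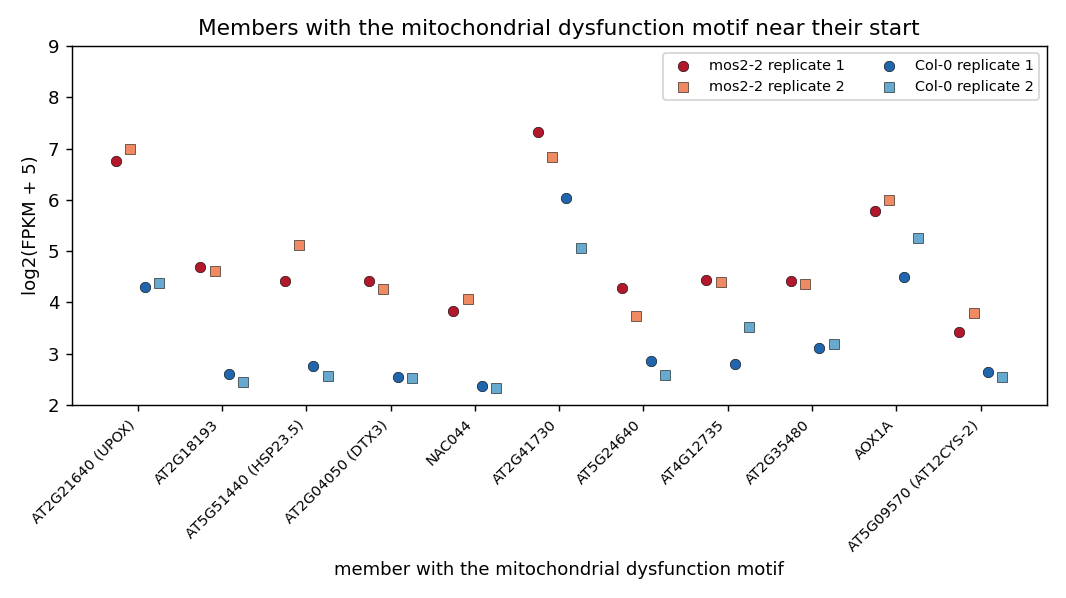
Log2(FPKM + 5) in each library of the 11 members with the mitochondrial dysfunction motif near their start, ordered by the difference between genotypes. Red and orange symbols are mos2-2 replicates 1 and 2, dark and light blue symbols Col-0 replicates 1 and 2, and in every gene both mos2-2 libraries lie above both Col-0 libraries, as the rule requires.

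Most carriers of the motif were not members. Of the 176 tested genes that held it, 11 (6.25%) were members, 48 (27.3%) had both mos2-2 values above both Col-0 values and 34 (19.3%) had both below. Over all 18057 windows these shares were 13.2% and 24.8%. The 165 carriers that were no members had a median log2 difference of -0.02 and shares of 22.4% above and 20.6% below, against a median of -0.06 over all windows. With 500 bases before the start, 12 of the 62 members (19.4%) and 325 of all windows (1.80%) held the motif. When the rule was applied with a library left out, 9 to 13 of its coding genes carried the motif, while the number of those genes grew. Their share was then 8.11% without Col-0 replicate 1, 4.12% without Col-0 replicate 2, 5.10% without mos2-2 replicate 1 and 8.21% without mos2-2 replicate 2.

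Other motifs were closer to their share in all windows. The TATA box (TATAAA) was in 30 members (48.4%) and 51.0% of all windows, and the W-box (TTGACC), bound by WRKY factors, in 13 members (21.0%) and 14.2% of all windows. The G-box (CACGTG) was in 11.3% of members and 8.93% of all windows. The evening element (AAAATATCT) of the clock was in 4.84% and 3.20%, the CCA1 binding site (AAAAATCT) in 6.45% and 8.27%, and the auxin response element (TGTCTC) in 11.3% and 13.4%. Site II (TGGGCC) was in 12.9% and 19.6%, and the telo box (AAACCCTA) in 1.61% and 5.53%. All were searched on both strands. None of these 8 had a share in members of more than 2 times that in all windows.

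The rest of the mitochondrial list was mixed. Of its 15 tested genes 11 were higher and 4 lower in mos2-2, 9 without overlap upwards and 1 without overlap downwards. Over all tested genes 13.1% were higher and 24.7% lower without overlap. The 15 genes had a median log2 difference of 0.55, against -0.06 over all tested genes. None passed limma over all genes, and 9 of the 15 had an unadjusted p below 0.05, which 1318 of all 19236 genes had (6.85%). The 9 include the 5 members, chosen by these same values. Of the 10 listed genes that were no members, 3 were higher and 1 lower at that level. ANAC013, a factor that binds the motif, was just outside the group, at 16.2 and 11.0 FPKM in mos2-2 and 5.74 and 3.802 FPKM in Col-0, a log2 difference of 0.92. ANAC017, known to act upstream of it after proteolytic release, was at 34.7 and 25.6 FPKM in mos2-2 and 28.5 and 26.0 FPKM in Col-0, with overlap. UGT74E2, a glucosyltransferase of an auxin, was at 3.395 and 6.20 FPKM in mos2-2, against 1.08 and 0.881 FPKM in Col-0.

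OM66, an AAA-type protein of the outer mitochondrial membrane and a common marker of this response, ran the other way. It was at 10.15 and 8.08 FPKM in mos2-2, against 20.3 and 24.7 FPKM in Col-0. NDB2, the external NADH dehydrogenase that acts with alternative oxidase, was at 2.305 and 5.425 FPKM in mos2-2 and 4.77 and 4.82 FPKM in Col-0, with overlap. SOT12, a sulfotransferase, and ABCB4, an auxin transporter, were higher without overlap, by 0.55 and 0.29 on the log2 scale. MGE1, a mitochondrial co-chaperone, CRF6, a cytokinin response factor, and CYP81D8, a cytochrome P450, overlapped between genotypes. The list was chosen with earlier results of these data known, so its count is no independent evidence of a direction.

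**Figure D3:**
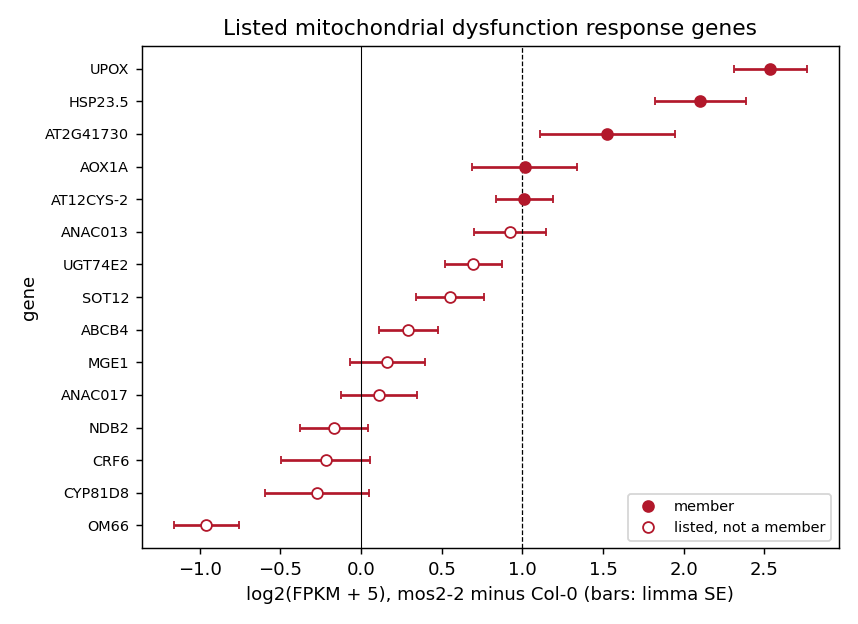
Difference in log2(FPKM + 5), mos2-2 minus Col-0, for the 15 listed genes of the mitochondrial dysfunction response, with the standard error from limma as bars. Filled circles are the 5 members, open circles the other listed genes, the dashed line marks the threshold of 1, and OM66 is lowest at -0.96.

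Several members encode transcription factors and other regulators of stress hormones. The NAC factors gave 3 members of 52 tested, NAC044 and a pair that responds to abscisic acid and jasmonate. Over all tested coding genes of at least 300 nt the share of members was 0.343%. NAC3, also called ANAC055, was at 57.8 and 48.6 FPKM in mos2-2, against 4.56 and 27.4 FPKM in Col-0. RD26, also called ANAC072, was at 61.2 and 91.25 FPKM in mos2-2, against 15.2 and 53.8 FPKM in Col-0. In both genes Col-0 replicate 1 was far below Col-0 replicate 2, and the Col-0 libraries differed more than the genotype means.

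ESE3, an ERF factor induced by ethylene and salt, had the same shape, at 63.1 and 89.8 FPKM in mos2-2 and 7.79 and 43.4 FPKM in Col-0. ERF71, an ERF factor of the hypoxia response, was low, at 4.51 and 11.0 FPKM in mos2-2, 0.846 FPKM in Col-0 replicate 1 and a listed 0 in Col-0 replicate 2. PP2CA, a phosphatase that restrains abscisic acid signalling, was at 106.3 and 82.3 FPKM in mos2-2 and 30.4 and 59.5 FPKM in Col-0. A second phosphatase of that family, AT5G02760, was at 83.2 and 26.2 FPKM in mos2-2 and 20.4 and 15.1 FPKM in Col-0.

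JAZ7, a repressor of jasmonate signalling, was at 27.4 and 85.15 FPKM in mos2-2, against 13.3 and 14.1 FPKM in Col-0. LOX4, a lipoxygenase of jasmonate synthesis, was at 39.1 and 26.1 FPKM in mos2-2, against 11.3 and 10.9 FPKM in Col-0. In JAZ7 and LOX4 the Col-0 replicates were close and the mos2-2 replicates further apart. The list of 14 jasmonate defence genes held 0 members, and 13 of its genes were lower in mos2-2, 7 without overlap. The 13 tested genes of salicylic acid defence also held 0 members and were all lower, 9 without overlap. Of all 19236 tested genes, 11470 were lower in mos2-2 and 4757 (24.7%) were lower without overlap. Members were 0.343% of all tested coding genes of at least 300 nt, so 0 members in lists of this size is near the background.

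Some members act in the cell wall. Expansins, which loosen the wall as cells enlarge, gave 3 members of 19 tested, beside 0.343% of all tested coding genes of at least 300 nt. EXPA10 was at 62.3 and 62.6 FPKM in mos2-2, against 27.8 and 14.25 FPKM in Col-0. EXPA11 was at 73.0 and 72.05 FPKM in mos2-2, against 18.3 and 45.3 FPKM in Col-0. EXPA1 was at 198.9 and 418 FPKM in mos2-2, against 97.3 and 146.6 FPKM in Col-0. EXPA10 and EXPA11 had close mos2-2 replicates, while those of EXPA1 differed by 1.05 on the log2 scale.

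Of the 12 listed cell wall genes, 9 were higher and 3 lower, 5 and 1 of them without overlap, with a median log2 difference of 0.54. Over all tested genes 13.1% were higher and 24.7% lower without overlap. Limma called 0 of the 12 over all genes, and the 3 with an unadjusted p below 0.05 were the 3 members, which were chosen by these same values. EXPA4 and the touch-induced XTH22 were higher without overlap by less than 1 on the log2 scale, and XTH24, a xyloglucan-modifying enzyme, was lower without overlap, at 123.5 and 77.1 FPKM in mos2-2 and 278 and 133 FPKM in Col-0. EXPA8 had a larger mean difference than the member expansins but overlapped, at 56.3 and 157 FPKM in mos2-2 and 8.13 and 80.4 FPKM in Col-0. EXPA5, XTH4, XTH17, XTH18 and XTH33 overlapped too.

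XTH19, a xyloglucan endotransglucosylase outside the list, was at 13.9 and 8.24 FPKM in mos2-2, against 1.99 and 3.05 FPKM in Col-0. AGP17, an arabinogalactan protein of the cell surface, was at 107 and 46.6 FPKM in mos2-2, against 35.1 and 19.6 FPKM in Col-0. GASA6, a gibberellin-regulated peptide, was at 697.6 and 726.6 FPKM in mos2-2, against 124.1 and 337.5 FPKM in Col-0. The mos2-2 libraries of GASA6 agree closely and its Col-0 libraries do not. IAA2, an early auxin-induced repressor, was at 450.0 and 243 FPKM in mos2-2, against 138.2 and 165.9 FPKM in Col-0. It was the single member among 16 tested auxin response genes, of which 9 were higher and 7 lower. For comparison, 0.343% of all tested coding genes of at least 300 nt were members. Of the 19236 tested genes, 7766 were higher and 11470 lower.

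Plastid genes of the nucleus were members mainly by modest differences. GUN5, the H subunit of magnesium chelatase in chlorophyll synthesis, was at 184.5 and 250.5 FPKM in mos2-2, against 38.8 and 179.5 FPKM in Col-0. The Col-0 libraries of GUN5 differed 2.08 on the log2 scale, more than the genotype means did (1.29). NdhM, a subunit of the NAD(P)H dehydrogenase of thylakoids, was at 178.3 and 165.1 FPKM in mos2-2 and 83.6 and 59.0 FPKM in Col-0. NdhT, another subunit of it, was at 18.9 and 48.3 FPKM in mos2-2 and 11.0 and 14.4 FPKM in Col-0. NdhL, a further subunit, stood just outside, at 548 and 415 FPKM in mos2-2 and 308 and 182.6 FPKM in Col-0.

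PSB28, a photosystem II assembly protein, was at 264.8 and 266.5 FPKM in mos2-2, against 170.6 and 95.1 FPKM in Col-0. Lhca6, an antenna protein that links photosystem I to that dehydrogenase, was at 250.1 and 282.6 FPKM in mos2-2, against 140.1 and 109.3 FPKM in Col-0. These 2 genes and NdhM had closer replicates in mos2-2 than in Col-0. GPX7, a plastid glutathione peroxidase, was at 12.0 and 22.8 FPKM in mos2-2, against 3.26 and 6.68 FPKM in Col-0.

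The list of 18 light-harvesting genes held 0 members, near the background at a share of 0.343% among tested coding genes of at least 300 nt. Of the 18 genes, 17 were higher in mos2-2, and 2 of these 17 did not overlap. Among all 19236 tested genes, 7766 were higher and 13.1% were higher without overlap. The summed level of the list was 54440 and 103300 FPKM in mos2-2 and 21060 and 93300 FPKM in Col-0, so replicate 1 was the lower library in both genotypes. GUN5 was also lower in replicate 1 of both genotypes. The part of this replicate difference in the plastid members was not tested.

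Among single members with known roles, FLC, the repressor of flowering, was at 20.75 and 6.70 FPKM in mos2-2, against 3.12 and 2.67 FPKM in Col-0. It was the only 1 of 8 listed FLC-clade and floral integrator genes in the group, beside 0.343% of all tested coding genes of at least 300 nt. In mos2-2, 6 of the 8 were lower, as were 11470 of all 19236 tested genes. BHLH38, an iron-deficiency factor, was at 6.835 and 62.5 FPKM in mos2-2, against 4.59 and 5.24 FPKM in Col-0, and so rests on mos2-2 replicate 2. The 12 listed iron genes summed to 191.6 and 683.7 FPKM in mos2-2 and 234.7 and 221.7 FPKM in Col-0, where replicate 2 of mos2-2 also stood apart.

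QQS, a gene found only in Arabidopsis thaliana that affects starch content, was at 57.6 and 69.0 FPKM in mos2-2, against 16.5 and 12.7 FPKM in Col-0. Its mean was 4.34-fold higher in mos2-2, with close replicates in both genotypes. BT2, a BTB and TAZ domain protein, was at 878 and 330.4 FPKM in mos2-2, against 293.6 and 230.3 FPKM in Col-0. AT2G20670, of a family of unknown function, was at 581.5 and 408.0 FPKM in mos2-2, against 67.5 and 189.8 FPKM in Col-0.

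AT2G32150, a haloacid dehalogenase-like hydrolase, was at 166.9 and 216.5 FPKM in mos2-2, against 55.2 and 70.4 FPKM in Col-0. AT1G61890, a second MATE transporter, was at 80.2 and 59.6 FPKM in mos2-2, against 24.9 and 22.9 FPKM in Col-0. AT2G15880, a leucine-rich repeat protein, was at 27.1 and 25.7 FPKM in mos2-2, against 4.94 and 7.90 FPKM in Col-0. In AT2G32150, AT1G61890 and AT2G15880 the genotypes lay at least 2.37 times apart between their nearest libraries. AT4G36850, a PQ-loop membrane protein, was at 80.75 and 41.4 FPKM in mos2-2 and 9.23 and 24.7 FPKM in Col-0. AT5G24155, an oxidoreductase, was at 46.7 and 45.9 FPKM in mos2-2 and 5.825 and 21.3 FPKM in Col-0. In AT4G36850 and AT5G24155 Col-0 replicate 1 was the lowest of the 4 libraries.

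AT4G15660, of the thioredoxin superfamily, was at 66.8 and 42.7 FPKM in mos2-2, against 23.9 and 10.2 FPKM in Col-0. AT1G62510, of the lipid-transfer protein superfamily, was at 44.2 and 17.1 FPKM in mos2-2, against 5.91 and 8.27 FPKM in Col-0. AT3G27027, a GPI-anchored-like protein, was at 14.8 and 35.8 FPKM in mos2-2, against a listed 0 and 3.72 FPKM in Col-0. In AT4G15660 replicate 1 was the higher library of both genotypes, and in AT1G62510 of mos2-2 alone. The other coding members not treated elsewhere had log2 differences between 1.03 and 1.25. Among these were DEG14, a protease, at 16.5 and 59.9 FPKM in mos2-2 and 8.87 and 12.9 FPKM in Col-0, and CYP71B12, a cytochrome P450, at 12.8 and 18.4 FPKM in mos2-2 and 2.92 and 7.57 FPKM in Col-0.

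A few members had a neighbour that ran the other way. MAPR2, a membrane-associated progesterone-binding protein, had the largest log2 difference of the 62 coding members (3.64), at 41.6 and 79.8 FPKM in mos2-2 and under 0.1 FPKM in both Col-0 libraries. Its neighbour by locus number, AT2G24945, was at 44.2 and 0.00178 FPKM in mos2-2 and 79.1 and 81.8 FPKM in Col-0. The pair summed to 85.8 and 79.8 FPKM in mos2-2 and 79.1 and 81.9 FPKM in Col-0, so the sum showed no such difference. AT4G11210, a dirigent-like protein, was at 8.69 and 10.2 FPKM in mos2-2 and 0.578 FPKM and a listed 0 in Col-0. Its neighbour AT4G11211 was at 55.05 and 66.5 FPKM in mos2-2 and 134.3 and 138.6 FPKM in Col-0. That pair summed to 63.7 and 76.7 FPKM in mos2-2 and 134.9 and 138.6 FPKM in Col-0, so here the sum was lower in mos2-2, unlike the sum of MAPR2 and AT2G24945. The snoRNA member AT3G58193 and its neighbour AT3G58196 summed to 285.5 and 247.5 FPKM in mos2-2 and 477.3 and 154.9 FPKM in Col-0, with overlap. AT3G58196 alone was at 154.1 FPKM and a listed 0 in mos2-2. The members AT2G43141, ATCG00940, ATCG01190 and ATCG01030 also had a neighbour by locus number that was lower in mos2-2. In all, 21 members overlapped another locus, 8 of them among the 62, and 0 of the overlapping partners were lower in mos2-2 by 1 or more on the log2 scale. The strand setting of the authors' counting is not given in the sources used here, so reads of overlapping loci cannot be told apart.

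The 62 coding members varied widely among themselves. Their log2 differences ran from 1.01 to 3.64 with a median of 1.24. In 22 of them the lowest mos2-2 value was at least 2 times the highest Col-0 value, and in 6 it was less than 1.2 times. The closest was GUN5, at 1.03 times. The gap between replicates exceeded the genotype difference in 7 members within mos2-2 and in 6 members within Col-0, and both gaps were smaller in 49. The median absolute difference between replicates was 0.49 in mos2-2 and 0.43 in Col-0, against 0.20 and 0.26 (mos2-2 and Col-0) over all tested coding genes. Replicate 2 was the higher library in most of the 62, in 36 within Col-0 and in 34 within mos2-2. Among all tested coding genes it was so in a minority, 36.1% in Col-0 and 41.2% in mos2-2.

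The members had a median transcript length of 1313.5 nt, against 1717.5 nt over all tested coding genes. Every 1 of the 62 had an estimated 19 reads or more in each mos2-2 library, with a median of 420. Chromosome 2 held 21.0% of them, against 15.1% of the tested coding genes, and chromosome 1 held 14.5%, against 26.4%. With a library left out, the rule took more loci and not all of the same ones. It took 204 without Col-0 replicate 1, 372 without Col-0 replicate 2, 414 without mos2-2 replicate 1 and 232 without mos2-2 replicate 2, and these held 83, 90, 96 and 86 of the 110.

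**Figure D4:**
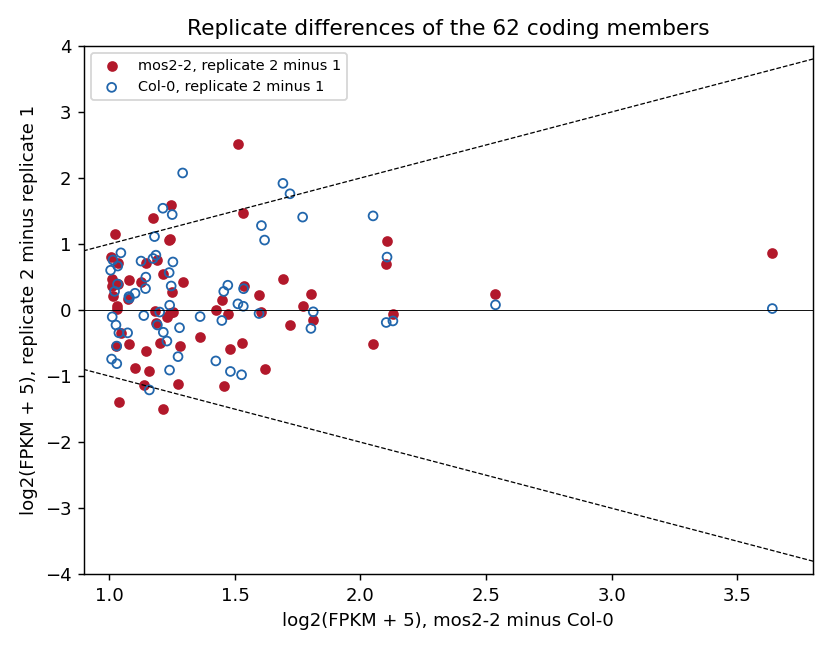
Difference between replicates (y axis, replicate 2 minus replicate 1) against the difference between genotypes (x axis), both in log2(FPKM + 5), for the 62 coding members. Filled red circles are mos2-2, open blue circles Col-0, and points outside the dashed lines, 7 for mos2-2 and 6 for Col-0, are members whose replicate gap exceeded the genotype difference.

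The members nearest the threshold were HCF244, FD1 and AT12CYS-2, with log2 differences of 1.005, 1.009 and 1.01. HCF244, a factor for synthesis of a photosystem II core protein, was at 83.65 and 149.4 FPKM in mos2-2 and 42.3 and 66.85 FPKM in Col-0. FD1, a ferredoxin that carries electrons from photosystem I, was at 488.4 and 678.7 FPKM in mos2-2 and 368.1 and 218.2 FPKM in Col-0. Just outside stood ATMG01380 of the mitochondrial genome (0.994), NdhL (0.992) and AT2G35260 (0.982). AT2G35260, annotated as a CAAX protease, was at 207.9 and 294.7 FPKM in mos2-2 and 87.9 and 170.9 FPKM in Col-0.

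The largest differences of all belonged to snoRNA genes, and the sequences of 7 of them are shown because they include the 3 that limma called and the members that lie next to each other. They were read from TAIR10.1, 5′ to 3′ on the gene's strand. Capitals mark the C box TGATGA near the 5′ end and the D box CTGA near the 3′ end where found. The same letters further inside a sequence, as in AT1G75163, are not marked.
AT2G35382, chr2:14894380-14894455, minus strand: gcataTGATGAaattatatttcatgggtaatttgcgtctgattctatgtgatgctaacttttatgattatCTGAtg
AT1G03746, chr1:937401-937485, minus strand: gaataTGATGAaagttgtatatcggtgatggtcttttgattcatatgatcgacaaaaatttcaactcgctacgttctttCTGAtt
AT1G75163, chr1:28212395-28212474, plus strand: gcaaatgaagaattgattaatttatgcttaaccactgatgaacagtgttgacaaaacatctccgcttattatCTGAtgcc
AT1G75166, chr1:28212518-28212603, plus strand: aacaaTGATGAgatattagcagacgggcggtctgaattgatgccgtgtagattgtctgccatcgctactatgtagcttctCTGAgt
AT2G43137, chr2:17923081-17923157, plus strand: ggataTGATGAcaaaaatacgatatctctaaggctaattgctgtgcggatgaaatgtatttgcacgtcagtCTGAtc
AT2G43138, chr2:17923238-17923316, plus strand: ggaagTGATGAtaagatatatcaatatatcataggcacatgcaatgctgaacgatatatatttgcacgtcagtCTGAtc
AT2G43141, chr2:17923563-17923637, plus strand: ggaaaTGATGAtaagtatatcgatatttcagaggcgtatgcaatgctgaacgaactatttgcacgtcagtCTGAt

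The D box was found near the 3′ end in 15 of the 15 snoRNA members and the C box near the 5′ end in 12. At least those 12 have the letters of the C/D type. No share over other sequences was set beside these counts. AT2G43137, AT2G43138 and AT2G43141 share 20 bases before and into the D box, tatttgcacgtcagtctgat, and lie within the span of AT2G43110. That host locus was at 7.29 and 9.07 FPKM in mos2-2 and 8.03 and 10.3 FPKM in Col-0, with overlap. AT1G75163 and AT1G75166 lie 44 nt apart.

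Most of these values rest on a handful of reads. At a length of 90 nt, 1 read was worth an estimated 82.0 and 77.2 FPKM in mos2-2 and 129 and 81.6 FPKM in Col-0. The estimate comes from a curve fitted to the snoRNA values themselves, of which 117 of 125 under 5.5 reads (93.6%) then came out within 0.1 of a whole number. AT2G35382 was at 325.6 and 764 FPKM in mos2-2, an estimated 2 and 5.01 reads, and listed at 0 in both Col-0 libraries. AT1G03746 held an estimated 2.99 and 4 reads in mos2-2, AT2G43138 held 2 and 3, and AT1G75163 held 2 in each, all with 0 in Col-0. In AT2G43137 the estimate was 3 and 1 reads and in AT3G58193 it was 0.998 and 2 reads in mos2-2, again with 0 in Col-0. These are among the members with the largest log2 differences, and 8 of the 15 snoRNA members had at most 5 estimated reads, rounded to whole reads, in each mos2-2 library.

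A smaller number of snoRNA members had more reads. AT1G75166 was at 10470 and 16390 FPKM in mos2-2, an estimated 107 and 177 reads, against 6870 and 2164 FPKM in Col-0, 44.6 and 22.1 reads. AT3G47347 was at 7088 and 4777 FPKM in mos2-2, an estimated 46 and 33 reads, against 1909 and 2942 FPKM in Col-0, 7.97 and 19.2 reads. AT4G39363 had an estimated 16.9 and 33.2 reads in mos2-2 and 5.99 and 3.01 reads in Col-0. In AT1G75166 the Col-0 libraries differed by over 3 times in FPKM, so the larger counts did not bring close replicates.

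**Figure D5:**
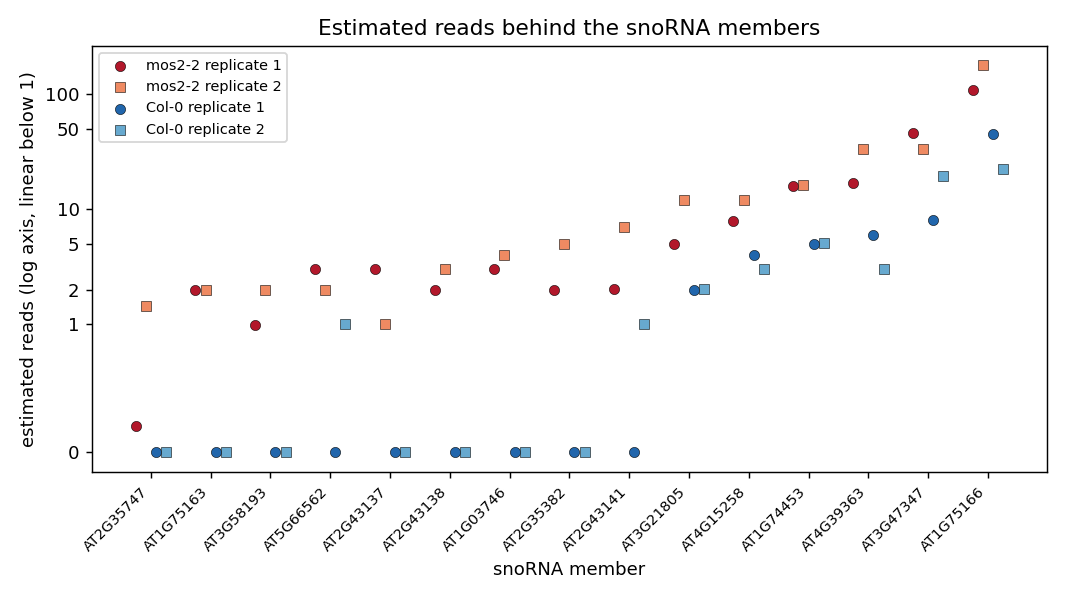
Estimated reads in each library for the 15 snoRNA members, on an axis that is logarithmic above 1 and linear below. Red and orange symbols are mos2-2 replicates 1 and 2 and blue symbols Col-0 replicates 1 and 2, and the members at the left have at most 5 estimated reads in each mos2-2 library and mostly 0 in Col-0.

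Among the other short or structural RNAs, 2 of the 4 tested rRNA loci, both of them members, were higher in mos2-2 without overlap. The annotated snoRNA genes summed to 36200 and 54580 FPKM in mos2-2 and 27980 and 22750 FPKM in Col-0. Of the 65 tested, 19, with the 15 members among them, were higher and 8 lower without overlap. The shares without overlap over all tested genes, for these counts and the rRNA and tRNA counts, were 13.1% higher and 24.7% lower. The rRNA loci summed to 148800 and 155500 FPKM in mos2-2 and 48580 and 43840 FPKM in Col-0. Both sums include members, which were chosen for being higher in mos2-2, so they do not show a rise of the class. The 2 rRNA members, which share 1 value in each library, make up most of the rRNA sum. The tRNA genes summed to 3168 and 3691 FPKM in mos2-2 and 2093 and 3315 FPKM in Col-0, with overlap, and 5 of the 158 tested were higher without overlap. The microRNA precursors summed to 792.8 and 959.1 FPKM in mos2-2 and 736.7 and 1394 FPKM in Col-0, also with overlap. The snoRNA, rRNA and tRNA products lack a long poly(A) tail, and the libraries were made from RNA selected on such tails. The part of that selection in the snoRNA, rRNA and tRNA members was not tested. The rRNA members AT2G01020 and AT3G41979, identical over 164 bases, had the same value in every library, 73080 and 76740 FPKM in mos2-2 and 23210 and 20660 FPKM in Col-0. The tRNA-Cys members AT1G53410 and AT2G28730 were also identical, over 72 bases, and had the same 128.4 and 38.4 FPKM in mos2-2 and 0 and 25.8 FPKM in Col-0. Equal values also joined the tRNA-Met gene AT2G07758 to the mitochondrial locus ATMG00250, and 3 pairs of chloroplast loci. These 12 members thus hold 6 separate measurements.

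Of the tRNA members, AT1G60840 was at 218.4 and 203.8 FPKM in mos2-2, an estimated 1.01 reads in each, and listed at 0 in Col-0. It passed the limma threshold on those reads. The snRNA member AT1G08115 was at 828.6 and 2448 FPKM in mos2-2, against 376.1 and 183.0 FPKM in Col-0. The chloroplast members included ATCG00960 and ATCG01170, with a shared 6918 and 26950 FPKM in mos2-2 and 2054 and 1119 FPKM in Col-0. ATCG01030 was at 131.4 and 61.9 FPKM in mos2-2 and listed at 0 in Col-0. The chloroplast genome as a whole summed to 175200 and 189700 FPKM in mos2-2 and 150400 and 220700 FPKM in Col-0, with overlap.

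Of the 8 coding members under 300 nt, AT3G20362 of 144 nt had the most reads, an estimated 61.6 and 64.3 in mos2-2 and 21.8 and 19.8 in Col-0. AT2G23118, also of 144 nt, had an estimated 1.95 and 1.98 reads in mos2-2 and was listed at 0 in Col-0. It lies antisense to AT2G23120 and 2109 nt from the member AGP17. The microRNA precursor MIR157c was at 17.1 and 24.7 FPKM in mos2-2, against a listed 0 and 8.57 FPKM in Col-0, and was 1 of 51 tested precursors. The lncRNA AT4G38552 was at 16.8 and 14.1 FPKM in mos2-2, against 3.05 and 2.87 FPKM in Col-0. It lies antisense to AT4G38550, which was at 152.4 and 116.4 FPKM in mos2-2 and 184.0 and 141.7 FPKM in Col-0.

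Of 70 tested genes on a list of microRNA targets 0 were members, which at a share of 0.343% among all tested coding genes of at least 300 nt is near the background. Of these targets 34 were higher and 35 lower in mos2-2, 9 and 12 of them without overlap, and the median log2 difference was near 0 (-0.0015). The lists of clock, cold, heat shock, nitrate, phosphate starvation and aliphatic glucosinolate genes also held 0 members. The DNA damage list held NAC044 alone among 14 tested genes, of which 10 were higher and 4 lower, 6 and 2 without overlap. Over all tested genes 13.1% were higher and 24.7% lower without overlap. The list of alternative respiration held AOX1A alone among 6 tested genes, 3 higher and 3 lower.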

How the data were processed

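The authors deposited 1 FPKM value per locus for each of the 4 libraries, made with TopHat and Cuffdiff on TAIR10, per the submitters' processing notes. Tool versions, the annotation release, the strand setting and how multiply matching reads were handled are not given in the sources used. RNA with poly(A) tails was selected before Illumina sequencing, per the labels' protocols. The deposited FPKM entered as log2(FPKM + 5), without further scaling. Read counts were not used. Read numbers in the text are estimates from the steps between low values. An exact 0 can be a failed estimate, so it is called a listed 0 and has no fold against it.

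The 19236 genes that averaged at least 1 FPKM were fitted with limma 3.58.1 in R 4.3.3. Genotype was the single term, with a mean-variance trend and two-sided tests, adjusted by Benjamini-Hochberg at 0.05. The fit gave standard errors and the background count, and its code was tested on simulated data. Gene types, lengths, names and sequences came from the RefSeq annotation of TAIR10.1, which matched 32810 loci and 98 of the 110 members. Chloroplast and mitochondrial loci are given by identifier. Other steps used Python 3.11.15.

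The members and gene lists were chosen with earlier results of these data known. The naming rule took the 20 coding members with the largest differences, the 6 largest other members, members on a list, past the limma threshold, beside another member or in a family with at least 2 others, and the 3 genes on each side of the threshold. Other members named, among them AT5G24640, AT4G12735, AT2G35480 and most hormone, plastid and growth genes, were chosen after their values were seen. The genotypes share replicate numbers without a stated pairing.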

Additional observations from a re-analysis of the deposited data

How the results depend on the processing

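Limma called 4 genes as reported, 12 with a pseudocount of 1, 0 with no filter on low values (1756 genes at an unadjusted p below 0.05) and 0 among nuclear genes of at least 300 nt (1395). It called 0 with any library left out (711 to 1952 at an unadjusted p below 0.05), where 1 residual degree of freedom remains and the spread of the lone library is taken from the other genotype. The 110 members became 220 with a pseudocount of 1, and 204 to 414 with a library left out. The 62 coding members became 153 with a pseudocount of 1, and 111 to 291 with a library left out. A pseudocount of 1 admits lower genes by construction, and all 110 members were among its 220. With that set 17 members carried the mitochondrial motif instead of 11. Median-ratio scaling, quantile normalization and a mean of at least 5 FPKM gave 129, 124 and 105 members, of which 110, 108 and 105 were shared with the 110. Same-numbered libraries of the genotypes deviated together with r = 0.244 over 19236 genes, and a replicate block left 4 genes past the threshold. For single named genes, 866 values under the alternatives kept their direction and side of the threshold, 16 values of the 4 called genes lost the call, 6 gained it and 0 reversed. Those single genes were the 110 members and MOS2. The rule sets both mos2-2 values of a member above both Col-0 values. Leaving out a library, another pseudocount or the block therefore could not reverse a member. Motif carriers by setting and in the 500-base window were added after seeing the data. Whether depth had a part in these changes was not tested. Short genes rest on a few reads.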
